A study of Mus musculus with 6 samples.

Results

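Peroxiredoxins, superoxide dismutases and thioredoxins were examined as a group of 10 genes: Prdx1 to Prdx6, Sod1, Sod2, Txn1 and Txn2. Each was found by its symbol in the GENCODE vM21 annotation of GRCm38, and the 10 are rows of a deposited table of 49584 gene identifiers. All 10 passed the filter on low counts, which left 13474 genes for testing. The 6 libraries were made by Smart-seq2, which copies and amplifies full-length cDNA from few cells, from mouse spermatocytes at the leptotene and zygotene stages, when meiotic chromosomes begin to pair, at postnatal day 12. The groups were 3 Srp68 SKO libraries and 3 wild type (WT) libraries. Srp68 is part of the signal recognition particle, which directs ribosomes that make secreted or membrane proteins to the ER (endoplasmic reticulum). The labels do not spell out SKO, and the table's headings write CKO for the same group. The strain, the Cre driver, the deleted exons, any sorting markers and whether replicates were separate animals are not known here. The p-values therefore cover the spread between these libraries alone, which may be technical.

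These proteins handle superoxide and hydrogen peroxide. Superoxide dismutases turn superoxide into hydrogen peroxide, Sod1 in the cytosol and Sod2 in the mitochondrial matrix. Peroxiredoxins reduce peroxides with a reactive cysteine, and most of them are returned to their reduced state by thioredoxin, Txn1 in the cytosol and nucleus and Txn2 in mitochondria, which thioredoxin reductases recharge with electrons from NADPH. Prdx4 is the secretory pathway member, which enters the ER by a signal sequence and couples peroxide removal to disulfide formation. In the testis, mice lacking Prdx4 are known for testicular atrophy.

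Libraries held 11853738 to 12728853 counts in SKO and 14254224 to 15381473 counts in WT (two-sided exact permutation test, p = 0.1, the smallest that 3 against 3 can give). Srp68 itself was at 12.1, 6.52 and 6.93 CPM in SKO and 21.7, 29.3 and 22.6 CPM in WT, lower in every library labelled SKO. CPM are counts scaled to a common library size, here with edgeR's TMM factors between libraries. All 14 leptotene and zygotene markers were detected, and their summed level was 29420 to 38780 CPM in SKO and 16900 to 21100 CPM in WT, while 12 markers of pachytene and later cells summed to 392.6 to 439 CPM in SKO and 506 to 617 CPM in WT. Spermatogonial markers (12 genes) summed to 272 to 350.2 CPM in SKO and 412 to 469.6 CPM in WT. These sums rest largely on a few genes, and single markers went both ways. Of the leptotene and zygotene markers 9 were higher and 2 (Spo11 and Msh4) lower in SKO. Of 7 tested pachytene and later markers 2 (Tnp1 and Mybl1) were higher and 4 lower. Among 10 tested spermatogonial markers 2 were lower and 8 did not pass. Over all tested genes 14.1% were higher and 14.4% lower in SKO, by the test described below. The part of stage in the results that follow was not tested. In bulk libraries, fewer cells of a type and less RNA per cell cannot be told apart. Somatic markers were low, with Leydig markers at 4.94 to 9.87 CPM in SKO and 0.58 to 6.6 CPM in WT (Cyp17a1, Cyp11a1 and Hsd3b6 at 0 counts throughout), myoid markers at 4.61 to 13.3 and 1.04 to 2.36 CPM (Des at 0), and endothelial markers at 0.77 to 1.89 and 0.516 to 1.57 CPM, SKO values first. SKO replicate 3 stood apart in 3 of these lists, with macrophage markers at 43.4 CPM, Sertoli markers at 102 CPM and myoid markers at 13.3 CPM, against highs of 2.47, 49.0 and 5.4 CPM among the other 5 libraries.

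Within the family, Prdx1, Sod2 and Txn1 rose in SKO spermatocytes, Prdx4 and Txn2 fell, and the other 5 genes did not pass the test. The threshold was an adjusted p under 0.05 (Benjamini-Hochberg, over all tested genes) in the quasi-likelihood test of edgeR. Of all tested genes, 14.1% were called higher and 14.4% lower in SKO, 28.5% in all, beside 5 of these 10. The median log2 fold change (SKO over WT) was 0.06 over the 10 genes and −0.03 over all tested genes. In 6 of the 10 every SKO library lay on one side of every WT library, as in 43.8% of all tested genes. Without SKO replicate 3, the library highest in macrophage, Sertoli and myoid markers, the family again had 3 genes higher and 2 lower.

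**Figure D1:**
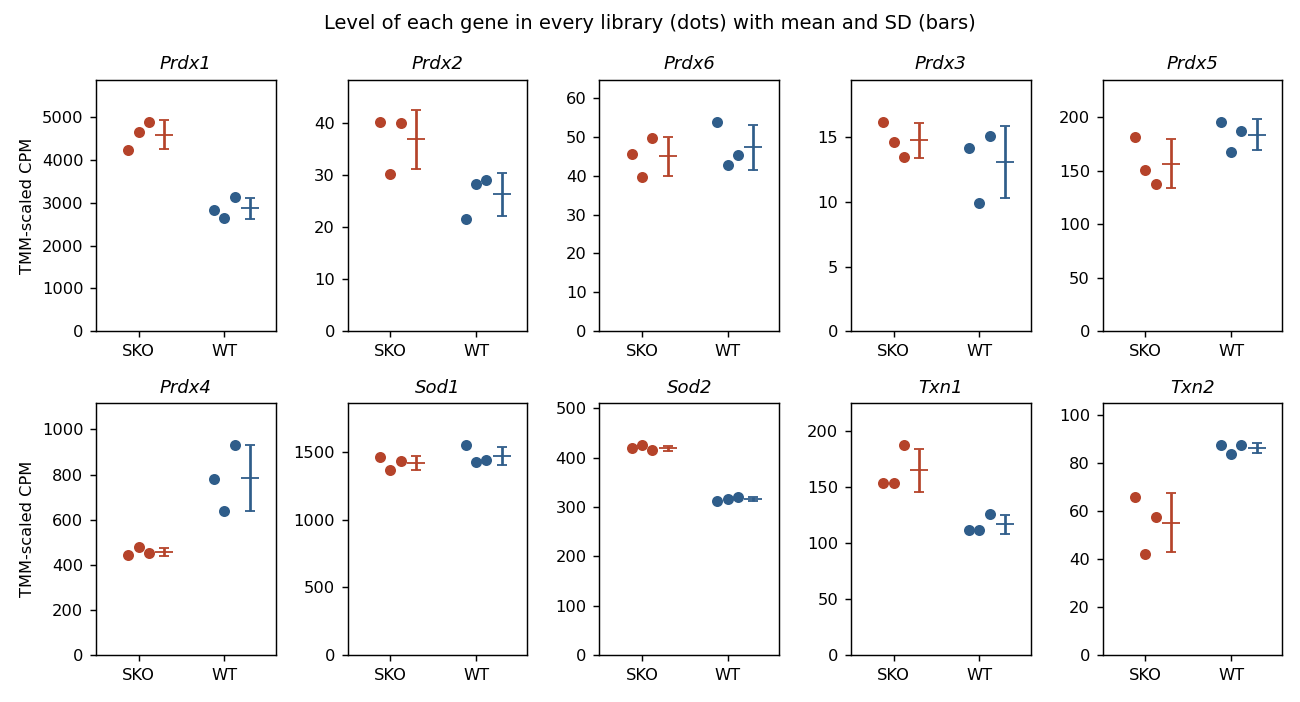
Level of each of the 10 genes in TMM-scaled CPM (vertical axis, from 0), with 3 SKO libraries (red) left of 3 WT libraries (blue) and the mean with its SD beside each group. SKO and WT dots do not overlap for Prdx1, Prdx2, Prdx4, Sod2, Txn1 and Txn2, and they do for Prdx3, Prdx5, Prdx6 and Sod1.

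Prdx1, the main cytosolic peroxiredoxin, was by far the most abundant of the 10 and had the steepest rise in the main test, though with a correction for GC content and length Prdx2 rose more (log2 fold change 0.79 for Prdx2 and 0.51 for Prdx1). Prdx1 (ENSMUSG00000028691; GRCm38 chromosome 4, 116685544 to 116700822, plus strand, protein-coding) ranked 15 of 13474 tested genes by mean CPM. It had 51398, 50167 and 50933 counts in SKO replicates 1 to 3 and 43874, 45781 and 47944 in WT replicates 1 to 3, which is 4230, 4669 and 4901 CPM in SKO and 2827, 2652 and 3140 CPM in WT. The lowest SKO library was above the highest WT library, and the counts themselves were higher in SKO although those libraries were shallower. Prdx1 averaged 4600 ± 341 CPM in SKO and 2873 ± 247 CPM in WT (SD, n = 3 each), a log2 fold change of 0.68 (SE 0.09, edgeR adjusted p = 9.98e-05). It was called in the main test and in all 17 alternatives, at log2 fold changes of 0.42 to 0.75. Processed pseudogenes close to its coding sequence, Gm7204 and Gm21399, held 88 and 57 counts over all 6 libraries against 290097 for Prdx1, so few counts were assigned to such copies.

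The promoters of Prdx1 and Prdx4 are shown because these are the genes of the family with the largest changes in the 2 directions. RefSeq sequences (GRCm38.p6, from 250 bases before to 50 after the annotated start) were found for 9 of the 10 genes, all but Prdx6. Each is printed on the gene's strand, in lower case, with motif matches in capitals.
Prdx1, chr4:116685349-116685648, plus strand: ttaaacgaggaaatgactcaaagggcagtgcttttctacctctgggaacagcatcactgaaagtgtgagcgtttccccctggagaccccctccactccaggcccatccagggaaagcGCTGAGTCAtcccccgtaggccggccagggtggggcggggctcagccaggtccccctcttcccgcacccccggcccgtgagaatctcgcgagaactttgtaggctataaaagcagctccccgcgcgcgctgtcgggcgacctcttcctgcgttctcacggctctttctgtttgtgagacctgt
Prdx4, chrX:155338411-155338710, minus strand: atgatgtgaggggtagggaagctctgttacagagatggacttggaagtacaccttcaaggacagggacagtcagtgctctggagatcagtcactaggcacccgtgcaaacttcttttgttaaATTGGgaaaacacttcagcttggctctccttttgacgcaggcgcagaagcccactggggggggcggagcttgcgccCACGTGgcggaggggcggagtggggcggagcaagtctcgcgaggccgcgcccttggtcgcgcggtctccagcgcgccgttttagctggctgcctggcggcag

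The capitals in Prdx1 mark TGACNNNGC on the opposite strand, the core of the antioxidant response element that NRF2 binds, beginning 133 bases before the start (chr4:116685466-116685474). Sod1 was the only other one of the 9 with this motif, and its match with flanking bases is shown for comparison.
Sod1 match, chr16:90220706-90220714: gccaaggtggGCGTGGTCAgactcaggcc

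Of all 32851 promoters of this length, 12.4% hold TGACNNNGC on either strand. The capitals in Prdx4 mark the E-box CACGTG and, on the opposite strand, CCAAT. The last of these was in 4 of the 9 (Prdx4, Sod1, Sod2 and Txn2) and in 37.4% of all promoters, while the E-box was in Prdx4 alone of the 9 and in 7.15% of all. TGATGNAA, a form of the site bound by ATF4 with C/EBP partners, was in none of the 9 and in 3.97% of all promoters. The matches are letters in these windows only. Prdx1, which rose, and Sod1, which did not pass, both hold the first motif.

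The other cytosolic peroxiredoxins were far less abundant, and neither passed the test. Prdx2, a peroxiredoxin best known from red blood cells, was at 40.2, 30.3 and 40.0 CPM in SKO and 21.6, 28.2 and 29.0 CPM in WT. Its groups did not overlap, but the SKO low and the WT high were close, and the log2 fold change of 0.49 (95% interval 0.07 to 0.91) had an edgeR adjusted p of 0.0782. Haemoglobin and other erythroid markers summed to 37.8, 150.4 and 71.7 CPM in SKO replicates 1 to 3 and 4.45, 5.04 and 137 CPM in WT replicates 1 to 3, which overlapped between genotypes. The library highest in erythroid markers had the lowest Prdx2 of its group in SKO (replicate 2) and the highest in WT (replicate 3), and the part of red cells in Prdx2 was not tested. Of the exon length of Prdx2, 11.5% is shared with Rnaseh2a and Junb on the opposite strand, and reads there cannot be assigned without strand. Prdx6, which uses a single catalytic cysteine and also acts on phospholipids, was at 45.4, 39.7 and 49.7 CPM in SKO and 53.9, 42.8 and 45.3 CPM in WT. The groups overlapped throughout (log2 fold change −0.07, 95% interval −0.42 to 0.27; edgeR adjusted p = 0.779).

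Prdx4, the ER peroxiredoxin, fell in SKO spermatocytes and was the steepest decrease of the family. Prdx4 (ENSMUSG00000025289; GRCm38 chromosome X, 155323918 to 155340754, minus strand, protein-coding) had 5406, 5130 and 4679 counts in SKO and 12135, 11025 and 14191 in WT. In CPM it was at 445, 477.5 and 450.3 in SKO and 782, 639 and 929 in WT, with the 3 SKO libraries close together and all below the lowest WT library. It averaged 457.5 ± 17.5 CPM in SKO and 783 ± 145 CPM in WT (SD, n = 3 each), a log2 fold change of −0.78 (SE 0.12, edgeR adjusted p = 0.000331). It was called in all 17 alternatives, at log2 fold changes of −1.03 to −0.63. Prdx4 is X-linked, and the X-linked genes as a whole lay the other way, with a median log2 fold change of 0.39. Of 614 tested, 169 were higher and 23, Prdx4 among them, were lower in SKO. Over all 13474 tested genes 1901 were higher and 1937 lower, with a median of −0.03.

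The partners of Prdx4 in oxidative protein folding mostly fell or did not pass. Of 16 genes of ER disulfide formation, 7 were lower and 2 higher in SKO while 7 did not pass. Over all tested genes 14.4% were called lower and 14.1% higher. The 16 genes had a median log2 fold change of −0.63, beside −0.03 over all tested genes. Erp44, which retains Prdx4 and Ero1 proteins in the early secretory pathway, was at 102.5 ± 10.6 CPM in SKO and 301 ± 36.1 CPM in WT (log2 fold change −1.555, edgeR adjusted p = 2.01e-06). Ero1l, the oxidase that drives disulfide formation and makes hydrogen peroxide, was at 63.5 ± 8.65 CPM in SKO and 137 ± 11.6 CPM in WT (−1.11, edgeR adjusted p = 5.05e-05). Pdia6, a protein disulfide isomerase that Prdx4 can oxidise, was at 310.3 ± 35.6 CPM in SKO and 598 ± 35.6 CPM in WT (−0.95, edgeR adjusted p = 2.59e-05). Ero1lb, the other oxidase of this pair, rose to 96.7 ± 12.9 CPM in SKO, against 70.2 ± 6.31 CPM in WT (0.46, edgeR adjusted p = 0.0228), as did the peroxidase gene Gpx8, at 0.988, 6.42 and 6.45 CPM in SKO and 0.773, 0.232 and 1.70 CPM in WT (edgeR adjusted p = 0.0397). The SKO and WT libraries overlapped for Gpx8. Both increases lost their calls when libraries were scaled by their totals only (adjusted p = 0.343 for Ero1lb and 0.0639 for Gpx8) and with a correction for GC content and length, which takes out the trend within each library (0.05975 and 0.0632). Ero1lb also lost its call without SKO replicate 1 or 2 or WT replicate 1 (0.0698 to 0.1404), and Gpx8 without SKO replicate 2 or 3 or WT replicate 1 or 2 (0.1086 to 0.163), with a replicate block (0.0516) and with limma-voom (0.118). With the correction for GC content and length the list stood at 0 higher and 6 lower, with a median of −0.24. On that setting the median over all tested genes was 0.01. The glutaredoxin list and the list of other thioredoxin-fold proteins, given below, then also stood at −0.24.

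The mitochondrial peroxiredoxins did not pass the test. Prdx3, the matrix peroxiredoxin that Txn2 serves, was at 16.2, 14.6 and 13.5 CPM in SKO and 14.2, 9.91 and 15.1 CPM in WT, the lowest levels of the 10 genes. The groups overlapped and the interval was wide (log2 fold change 0.18, 95% interval −0.37 to 0.72; edgeR adjusted p = 0.652), so a moderate change either way was not detectable in these libraries. Prdx5, found in mitochondria, peroxisomes and the cytosol, was at 182, 150.2 and 137 CPM in SKO and 196, 167 and 187 CPM in WT, with overlapping groups (log2 fold change −0.23, 95% interval −0.50 to 0.04; edgeR adjusted p = 0.192). The sign of Prdx5 depended on the processing: it was −0.49 with library totals (adjusted p = 0.0136) and 0.43 with the GC content and length correction (adjusted p = 0.01665), past the threshold in opposite directions. Its longest transcript had the highest GC content of the 10 genes, 56.4%. Over all tested genes, split into 3 groups of equal size by GC content, the median log2 fold change was 0.25 in the lowest group, −0.04 in the middle and −0.41 in the highest. Of the exon length of Prdx5, 19.1% is shared with Trmt112 on the opposite strand, which was at 243 CPM in SKO and 181 CPM in WT (log2 fold change 0.42, edgeR adjusted p = 0.0157), so its counts are uncertain.

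**Figure D2:**
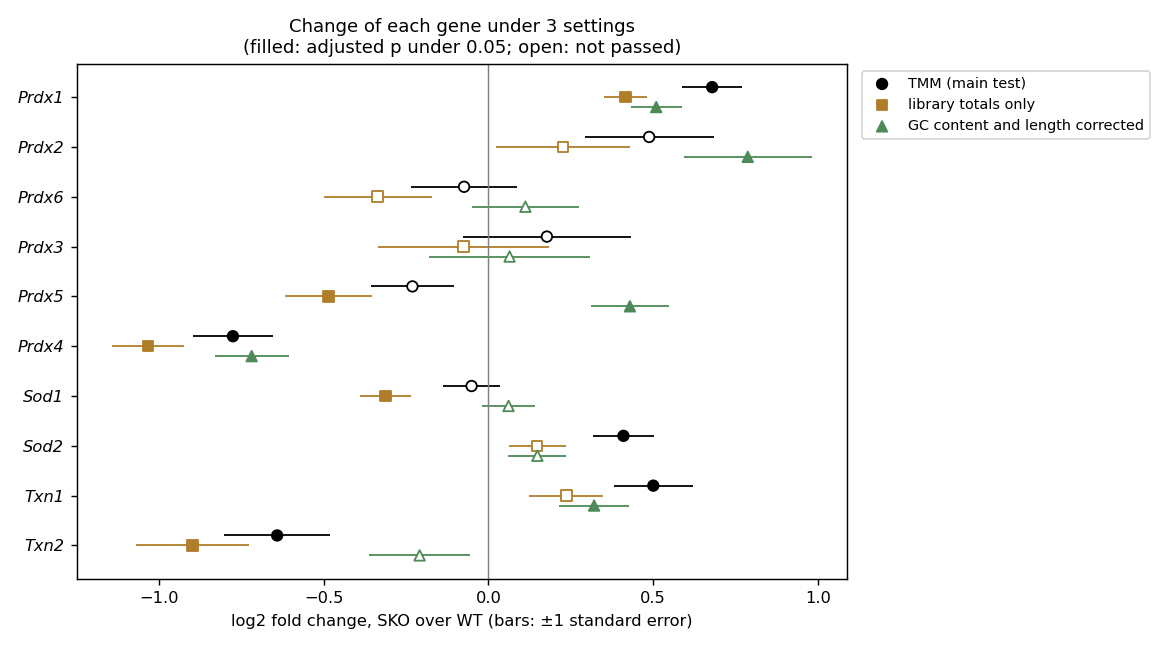
Log2 fold change, SKO over WT (horizontal axis; bars are 1 standard error either way), of the 10 genes in the main test, with library totals only and with the GC content and length correction. Filled symbols passed an adjusted p under 0.05, and Prdx1 and Prdx4 are filled in all 3 settings, while Prdx5 is filled on opposite sides of 0 in 2 of them.

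The superoxide dismutases differed in their change. Sod1 (ENSMUSG00000022982), the copper and zinc enzyme of the cytosol, was at 1464, 1365 and 1432 CPM in SKO and 1551, 1427 and 1439 CPM in WT, the next most abundant of the 10 after Prdx1. The groups overlapped (log2 fold change −0.05, 95% interval −0.23 to 0.13; edgeR adjusted p = 0.704). Sod2 (ENSMUSG00000006818; GRCm38 chromosome 17, 13006846 to 13040063, plus strand, protein-coding), the manganese enzyme of the mitochondrial matrix, was at 419, 425 and 415 CPM in SKO and 312.5, 315 and 319.7 CPM in WT. Every SKO library was above every WT library, and the spread was the smallest of the family, with coefficients of variation of 1.206% in SKO and 1.154% in WT. The log2 fold change of Sod2 was 0.41 (SE 0.09, edgeR adjusted p = 0.00406). Sod2 was no longer called with library totals (0.15, adjusted p = 0.224) and with the GC content and length correction (0.15, adjusted p = 0.263), and its longest transcript had a GC content of 42.2%, the lowest of the family.

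With library totals, all tested genes had a median log2 fold change of −0.29, against −0.03 with TMM factors. Relative to that median, Sod1 and Sod2 stood at −0.02 and 0.44 with totals, and Sod1 passed as lower on that scaling (log2 fold change −0.31, adjusted p = 0.00737). A ratio of counts within a library is free of the scaling between libraries. The ratio of Sod2 to Sod1 counts was 0.286, 0.311 and 0.2899 in SKO and 0.202, 0.221 and 0.222 in WT, higher in every SKO library. Such a ratio still carries any trend with GC content, and after the correction for GC content and length the log2 fold changes of Sod2 and Sod1 were 0.15 and 0.06. Ccs, the copper chaperone that loads Sod1, was at 34.2 ± 4.98 CPM in SKO and 40.1 ± 1.45 CPM in WT and did not pass (log2 fold change −0.23, edgeR adjusted p = 0.3496).

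The thioredoxins moved in opposite directions. Txn1 (ENSMUSG00000028367; GRCm38 chromosome 4, 57943373 to 57956411, minus strand, protein-coding), the cytosolic and nuclear form, was at 154, 154 and 187 CPM in SKO and 112, 112 and 126 CPM in WT. Every SKO library was above every WT library, and the means were 165 ± 19.2 CPM in SKO and 117 ± 8.27 CPM in WT (SD, n = 3 each; log2 fold change 0.50, SE 0.12, edgeR adjusted p = 0.00656). Txn1 was no longer called with library totals (0.24, adjusted p = 0.132), where it was 0.53 above the median of all genes.

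Txn2 (ENSMUSG00000005354; GRCm38 chromosome 15, 77915047 to 77929006, minus strand, protein-coding), the mitochondrial form, was at 65.8, 42.0 and 57.6 CPM in SKO and 87.3, 83.7 and 87.3 CPM in WT. All SKO libraries were below all WT libraries, but they were spread more widely, with a coefficient of variation of 21.98% in SKO and 2.46% in WT. Means were 55.2 ± 12.1 CPM in SKO and 86.1 ± 2.11 CPM in WT (SD, n = 3 each; log2 fold change −0.64, SE 0.16, edgeR adjusted p = 0.00832). Without SKO replicate 2, the lowest, Txn2 stood at −0.48 with an adjusted p of 0.05001. The GC content and length correction brought it to −0.21 (adjusted p = 0.3745), and its transcript had a GC content of 53.5%, next to that of Prdx5.

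The ratio of Txn1 to Txn2 counts was 2.335, 3.665 and 3.24 in SKO and 1.28, 1.335 and 1.44 in WT. That of Prdx1 to Prdx4 counts was 9.51, 9.78 and 10.9 in SKO and 3.615, 4.15 and 3.38 in WT. Every SKO library was above every WT library in both ratios. They, the Sod2 to Sod1 ratio and 3 others made a family of 6 ratios tested, each with an exact permutation p of 0.1, also 0.1 after Benjamini-Hochberg adjustment, the smallest that 3 against 3 libraries allows. Such ratios still carry any trend with GC content. After the correction for GC content and length, log2 fold changes were 0.32 for Txn1 and −0.21 for Txn2. Those of Prdx1 and Prdx4 were 0.51 and −0.72. How often ratios of other gene pairs separate the groups was not tested.

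Prdx1 held a larger and Prdx4 a smaller share of the family's counts in every SKO library than in any WT library, while the family's share of raw library counts overlapped between genotypes. The 10 genes held 0.674%, 0.665% and 0.674% of SKO counts and 0.6485%, 0.615% and 0.675% of WT counts. With TMM scaling their summed level was 7061, 7368 and 7683 CPM in SKO and 5957, 5476 and 6318 CPM in WT, higher in every SKO library, so the overlap was seen in raw shares and not with TMM scaling. Of these sums Prdx1 made up 4230, 4669 and 4901 CPM in SKO and 2827, 2652 and 3140 CPM in WT. Without Prdx1 the summed level was not higher in SKO. Prdx1 took 59.9%, 63.4% and 63.8% of the family's counts in SKO and 47.5%, 48.4% and 49.7% in WT. Prdx4 took 6.3%, 6.48% and 5.86% in SKO and 13.1%, 11.7% and 14.7% in WT. Sod1 took 19.3 ± 1.25% in SKO and 24.95 ± 1.89% in WT, and the remaining 7 genes shared the rest. These shares are of counts not divided by gene length. They are also not independent of each other, since a larger Prdx1 share lowers all others.

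**Figure D3:**
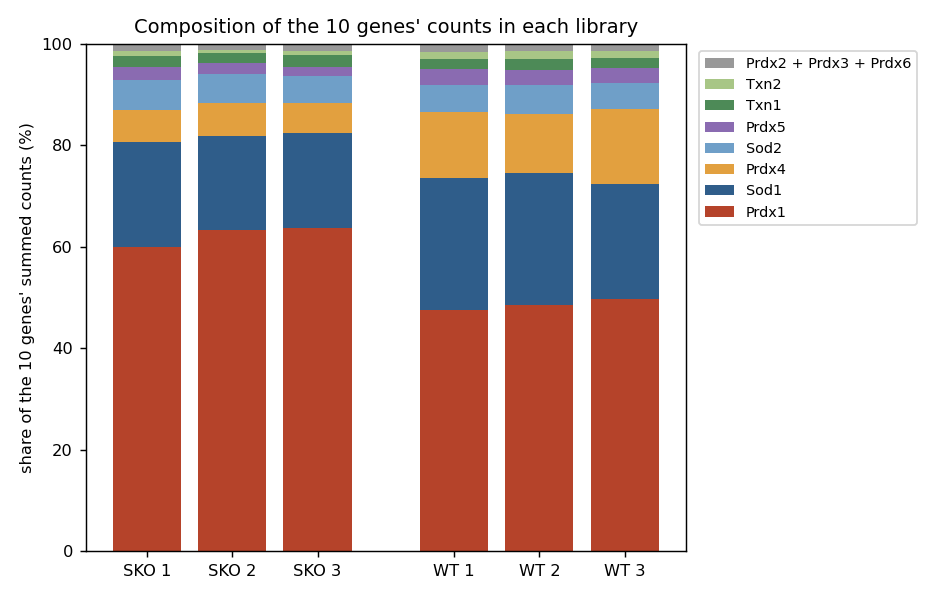
Share of the 10 genes' summed counts held by each gene (vertical axis, percent) in the 3 SKO libraries on the left and the 3 WT libraries on the right. The Prdx1 segment spans 59.9% to 63.8% in SKO and 47.5% to 49.7% in WT, and the Prdx4 segment 5.86% to 6.48% in SKO and 11.7% to 14.7% in WT.

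For levels between genes, CPM was divided by the total exon length in kilobases. On that scale Prdx1 was at 1512 ± 112 in SKO and 944 ± 81.2 in WT, followed in WT by Prdx4 at 372 ± 69.0 and Sod1 at 371 ± 17.2, which did not differ beyond their spread. In SKO the next was Sod1 at 358 ± 12.7, then Prdx4 at 217 ± 8.29 and Txn1 at 157 ± 18.2. Txn1 was at 111 ± 7.87 in WT. Prdx5 came next (73.1 ± 10.7 in SKO and 85.8 ± 6.83 in WT), then Sod2 (41.9 ± 0.506 and 31.6 ± 0.364) and Txn2 (13.1 ± 2.88 and 20.5 ± 0.502), all as SKO then WT. The lowest, Prdx2, Prdx3 and Prdx6, lay between 9.36 and 12.1 in SKO and between 8.61 and 9.85 in WT, with SDs of 0.931 to 1.88 that overlap. Exon length covers all annotated transcripts of a gene, and which of them were expressed is not known from counts per gene.

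Of 7 tested genes that recharge or inhibit thioredoxin or are linked to peroxiredoxin repair, Sesn2 alone was called, beside 28.5% of all tested genes. None of the 4 thioredoxin reductase and inhibitor genes passed in edgeR (0 at an unadjusted p under 0.05, and 0 with DESeq2 or limma-voom), although Txnrd3 was lower with library totals (adjusted p = 0.0404). The cytosolic reductase Txnrd1 was at 7.31 ± 1.17 CPM in SKO and 9.09 ± 2.84 CPM in WT, the mitochondrial Txnrd2 at 8.38 ± 1.66 and 9.1 ± 1.75 CPM, the testis-enriched Txnrd3 at 32.6 ± 1.57 and 40.3 ± 7.91 CPM, and the thioredoxin inhibitor Txnip at 25.6 ± 3.82 and 21.6 ± 4.19 CPM, SKO then WT. Of sulfiredoxin and the sestrins, stress-induced proteins linked to peroxiredoxin repair, Srxn1 was too low to test, with 7 counts in all SKO and 18 in all WT libraries. Sesn2, a target of the ATF4 pathway, rose to 4.96 ± 0.3995 CPM in SKO, against 1.86 ± 0.179 CPM in WT (log2 fold change 1.41, edgeR adjusted p = 0.0306). Its call was lost with library totals (0.0718), with no filter on low counts (0.08225), with a replicate block (0.0514), and when any 1 of the 3 SKO libraries or WT replicate 2 or 3 was left out (0.0565 to 0.101). Sesn1 (−0.14) and Sesn3 (0.20) did not pass.

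Other peroxide-removing enzymes changed in both directions, and the called genes of the glutaredoxin system fell. Of 6 tested genes for other peroxide-removing enzymes, 2 were higher and 2 lower, and Cat and Gpx7 did not pass. Their median log2 fold change was −0.41, beside −0.03 over all tested genes, of which 14.1% were called higher and 14.4% lower. With the correction for GC content and length the median of the list was 0.07, with 1 gene higher and 1 lower. Gpx1, a cytosolic and mitochondrial glutathione peroxidase, rose to 74.9 ± 8.59 CPM in SKO, against 40.0 ± 7.39 CPM in WT (0.90, edgeR adjusted p = 0.00116), and Gpx8 is given above. Gpx4, which reduces lipid peroxides and forms part of the sperm mitochondrial capsule, was at 207 ± 25.1 CPM in SKO and 286 ± 10.6 CPM in WT (−0.47, edgeR adjusted p = 0.00613), but stood at 0.27 after the GC content and length correction (adjusted p = 0.05835). Gpx3 fell to 0.483 ± 0.508 CPM in SKO, against 4.19 ± 1.99 CPM in WT (edgeR adjusted p = 0.00859), and was not called with limma-voom (0.0661). In the glutaredoxin system 3 of 5 genes were lower, 0 higher and 2 (Glrx and Glrx2) not passed. Over all tested genes 14.4% were called lower, and the median was −0.03 against −0.45 in this list. With the correction for GC content and length 1 gene of the list was lower, and its median was −0.24. Glrx3 was at 261 ± 12.0 CPM in SKO and 341 ± 4.07 CPM in WT (edgeR adjusted p = 0.00789). Glutathione reductase Gsr was at 43.3 ± 4.01 and 62.05 ± 1.147 CPM, SKO then WT (edgeR adjusted p = 0.0152). Glrx5, of mitochondrial iron-sulfur cluster assembly, was at 111.5 ± 23.5 and 153 ± 19.7 CPM, SKO then WT (edgeR adjusted p = 0.04025). Gsr and Glrx5 lost their calls with the GC content and length correction (adjusted p = 0.232 and 0.935). Glrx5 also lost it without SKO replicate 2 or 3 or WT replicate 1 or 2 (0.116 to 0.1765) and with upper-quartile scaling (0.0541), and Gsr without SKO replicate 3 (0.0707).

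Regulators and targets of NRF2, the transcription factor that induces Prdx1, Txn1 and Txnrd1 under oxidative stress, were taken as one list. Of its 17 tested genes, 2 were higher and 5 lower in SKO and 10 did not pass, among them regulators Nfe2l2, Keap1 and Mafg. Over all tested genes 14.1% were called higher and 14.4% lower. The median of the list was −0.20 on the log2 scale, beside −0.03 over all tested genes. With the correction for GC content and length 2 were higher and 3 lower, with a median of −0.09. The gene for NRF2 itself, Nfe2l2, was at 19.8 ± 0.771 CPM in SKO and 22.6 ± 6.51 CPM in WT (edgeR adjusted p = 0.582). The 2 that rose were Slc7a11, the cystine transporter subunit, at 19.3, 34.3 and 14.3 CPM in SKO and 0.193, 0.695 and 0 CPM in WT (edgeR adjusted p = 1.16e-05), and the ferritin light chain gene Ftl1, at 201 ± 8.3 CPM in SKO and 154 ± 19.4 CPM in WT (edgeR adjusted p = 0.0246). The ferritin heavy chain gene Fth1 fell to 768 ± 47.1 CPM in SKO, against 1125 ± 10.3 CPM in WT (edgeR adjusted p = 0.000367). The autophagy receptor gene Sqstm1 fell to 19.1 ± 4.74 CPM in SKO, against 66.0 ± 23.4 CPM in WT, and Pgd of the pentose phosphate pathway to 22.2 ± 4.57 CPM in SKO, against 39.9 ± 0.882 CPM in WT (edgeR adjusted p = 0.000185 and 0.00449). The other genes that fell were Taldo1, also of that pathway, at 59.9 ± 5.2 CPM in SKO and 94.2 ± 24.3 CPM in WT (edgeR adjusted p = 0.0133), and Gsr. Neither Taldo1 nor Gsr was among the 3 still called lower with the correction for GC content and length. Ftl1 shares 34.6% of its exon length, and Sqstm1 17.3%, with other annotated genes, and ferritin genes have processed copies, so these counts are uncertain. Ftl1 lost its call with library totals (0.498), when any 1 of the 3 SKO libraries was left out (0.0659 to 0.0721) and without WT replicate 3 (0.0829).

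Of 13 tested genes for other proteins with a thioredoxin fold, 2 were higher and 2 lower while 9 did not pass, a share called near the 28.5% of all tested genes, and the median was −0.01 on the log2 scale. With the correction for GC content and length 1 was higher and 3 lower, with a median of −0.24. Txndc17, a cytosolic thioredoxin-related protein, rose to 246 ± 24.8 CPM in SKO, against 162.5 ± 7.94 CPM in WT, and Txnl1, which associates with the proteasome, to 305 ± 6.78 CPM in SKO, against 216 ± 30.0 CPM in WT (edgeR adjusted p = 0.00109 and 0.00453). Txnl4b fell to 4.45 ± 1.12 CPM in SKO, against 12.6 ± 4.21 CPM in WT, and Txndc15 to 2.88 ± 1.32 CPM in SKO, against 7.68 ± 2.52 CPM in WT (edgeR adjusted p = 0.00497 and 0.0314). Txnl1 lost its call with library totals (0.152) and with the GC content and length correction (0.287). Txndc15 lost it with that correction (0.0708), without SKO replicate 1 or 2 and without WT replicate 2 or 3 (0.0551 to 0.111).

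**Figure D4:**
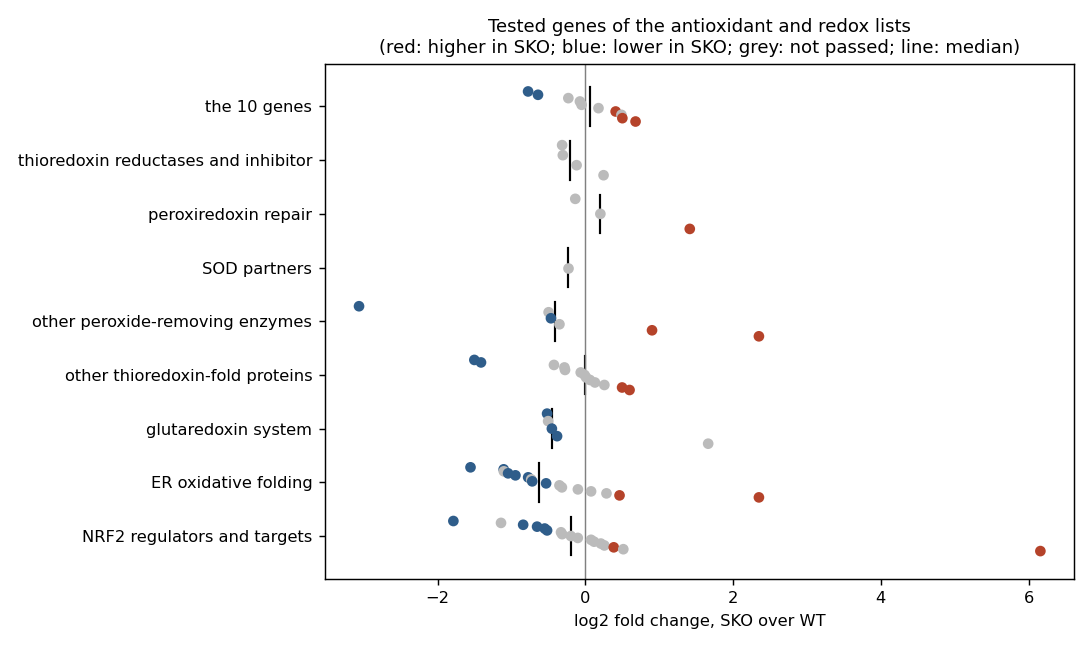
Log2 fold change, SKO over WT (horizontal axis), of the tested genes in the family and in 8 related lists, 1 dot a gene, with a line at each list's median. Red dots were higher and blue dots lower in SKO at an adjusted p under 0.05. In this main test the ER oxidative folding list has the lowest median of those drawn, −0.63. With the GC content and length correction (not drawn) its median was −0.24, as were those of the glutaredoxin and other thioredoxin-fold lists.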

How the data were processed

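Libraries, groups and the gene rule are those described above. The submitters' processing notes name FastQC, Trim Galore 0.6.4, HISAT2 2.0.5 and the builds GRCm38 and mm10. The sources used here do not say how reads were counted, or with which annotation and strand setting. Values in the deposited table are raw whole-number counts, with no scaling by the authors seen in them. Reads carry no molecular identifiers. Standard errors and SDs cover the spread between these libraries. A count of 3 was 0.174 to 0.289 CPM, depending on the library.

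The test used edgeR 4.0.16 in R 4.3.3: filterByExpr by genotype, TMM scaling, glmQLFit and glmQLFTest (two-sided, genotype only), Benjamini-Hochberg adjustment over 13474 genes. Each standard error comes from that fit. The fit was tested on simulated data. The 10 genes and the related lists were chosen with earlier results of these data known. All 10 genes are named. From each list, up to 3 called genes in each direction by smallest p are named, and others where 5 or fewer are counted. Nfe2l2, Keap1 and Mafg were named outside that rule. Alternatives were 2 other scalings and library totals, 2 filters, robust fitting, DESeq2 1.42.0, limma-voom (limma 3.58.1), a replicate block, mitochondrial and ribosomal protein genes left out, each library left out, a stricter threshold, and loess trends (span 0.3) on GC content and exon length as offsets. Pseudogene copies were sought by blastn of each coding sequence against GENCODE vM21 transcripts (identity of at least 90% over 150 bases).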

Additional observations from a re-analysis of the deposited data

How the results depend on the processing

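Main counts were 3 genes of the family higher and 2 lower, and 1901 higher and 1937 lower over all genes. With library totals these were 1 and 4, and 1010 and 3168, and 24.2% of calls were higher in SKO, against 49.5% with TMM factors. With the GC content and length correction 4 genes of the family were higher (Prdx1, Prdx2, Prdx5 and Txn1) and 1 lower (Prdx4), and with an adjusted p under 0.01 there were 1230 higher and 1142 lower genes. Leaving out each library gave 3 higher in every case, 1 to 2 lower (1 without SKO replicate 2), and 1361 to 1916 higher and 1373 to 1851 lower over all genes. Prdx2 passed with DESeq2 (adjusted p = 0.0495) and with the GC content and length correction (0.00876). Log2 fold changes that changed sign with that correction were Prdx5 (0.43), Prdx6 (0.11), Sod1 (0.061), Txnrd2 (0.41), Txnrd3 (0.13), Sesn1 (0.092), Sesn3 (−0.12), Ccs (0.34) and Gpx4 (0.27), and with library totals Prdx3 (−0.076), Txnip (−0.0145) and Sesn3 (−0.068). Of these only Prdx5, with that correction, was past the threshold after the change. Leaving out each library gave ranges that cross 0 for Prdx6 (−0.152 to 0.0299), Txnrd2 (−0.230 to 0.0478), Sesn1 (−0.33 to 0.25) and Sesn3 (−0.00081 to 0.36). The cause of these shifts was not tested. Same-numbered libraries did not deviate together (correlations of −0.05 to 0.04), so no pairing by number was seen in expression. Whether same-numbered libraries were prepared together is not known here. A replicate block gave 3 higher and 2 lower in the family, and 1976 higher and 1991 lower genes in all. Prdx3 had 140 to 231 counts a library, the fewest of the family, and a coefficient of variation of 9.32% in SKO and 21.3% in WT.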
